A study of Bos taurus with 28 samples.

Results

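The genes described here are 8 genes of B cells and of the plasma cells that they become: CD38, MS4A1, POU2AF1, BLNK, CD79A, CD79B, JCHAIN and LY9. Every probe set that the platform annotation gives exactly 1 of these symbols was taken, with JCHAIN also listed under its older name IGJ. This gave 10 probe sets of 7 genes among 24016 probe sets tested, and CD79B matched no probe set in the annotation used. Messenger RNA was measured with 1 Affymetrix Bovine Genome Array for each of 28 cows. All were Holstein-Friesian dairy cows in mid-lactation on a control diet of corn silage, grass silage and concentrates, and the RNA came from a surgical biopsy of the mammary gland. The groups are genotypes of DGAT1, which encodes an enzyme of the last step of triacylglycerol synthesis: 4 KK cows with lysine on both alleles, 13 KA cows with both forms, and 11 AA cows with alanine on both alleles. The comparisons ask which genes differ in the gland with this natural variant, and cows of one group also differ in the rest of their genome.

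B cells carry an antibody on their surface as the B cell receptor, and CD79A with CD79B are its signalling chains. Plasma cells are B cells that have turned to antibody secretion, and in the lactating gland they settle beside the secretory epithelium. There the J chain, encoded by JCHAIN, joins IgA and IgM into polymers, which the receptor PIGR carries through the epithelium into milk. In a biopsy with many cell types, more RNA per cell and more cells of a type cannot be told apart.

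All values are deposited log2 values from which 1 baseline per probe set had been taken away, so 1 unit is a 2-fold difference between cows and the level of a gene itself is lost. A coarse level class was read from the rounding steps that the subtraction left in the values. It uses the cows within 0.5 of the baseline. JCHAIN was in the bright class, with the step of log2 levels of 8 or more in those cows. CD79A, 1 of the MS4A1 probe sets and 1 of the LY9 probe sets were intermediate, with the step of 4 or more, and the other 6 probe sets were dim, with finer steps too. In the cows within 0.5 of the baseline of each probe set, milk protein genes bore out the tissue label. The probe sets of CSN1S1, CSN1S2, CSN3, LALBA and PAEP were all bright, and of CSN2 2 of 3 probe sets were. For CD22 and PAX5, other defining B cell genes, no probe set was matched in the annotation used.

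Arrays are called by genotype and a running number. KK 4 is the KK array whose number in the title is 39, and it was high in most of these genes, so the results on them are given with and without it. AA 2 and AA 9 stood apart: 4807 probe sets of AA 2 and 3699 of AA 9 lay more than 1 log2 from their baseline, where 62 to 449 did in each other array and 242 in KK 4. Results that turn on these AA arrays are also given without them. Array numbers 29 to 42 held 4 KK, 2 KA and 8 AA arrays and numbers 43 to 56 held 0 KK, 11 KA and 3 AA arrays, and the sources used here do not say whether these ranges are batches.

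No probe set of these genes passed the adjusted threshold between any genotypes. Single cows of all 3 genotypes overlapped in each of the 10 probe sets, and JCHAIN had the widest range between cows. In KK cows the mean over the 7 genes was -0.09 in KK 3, -0.03 in KK 2, 0.04 in KK 1 and 0.98 in KK 4, so 3 of the 4 lay together near 0 and KK 4 stood far above them. In KA cows this mean ran from -0.54 in KA 8 through a median of -0.12 to 0.26 in KA 2. In AA cows it ran from -0.27 in AA 1 through a median of 0.01 to 1.02 in AA 2. The groups overlapped, and the highest array of all in this mean was an AA array. In the plain mean over the 10 probe sets KK 4 was the highest, at 1.00, against 0.80 in AA 2.

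**Figure D1:**
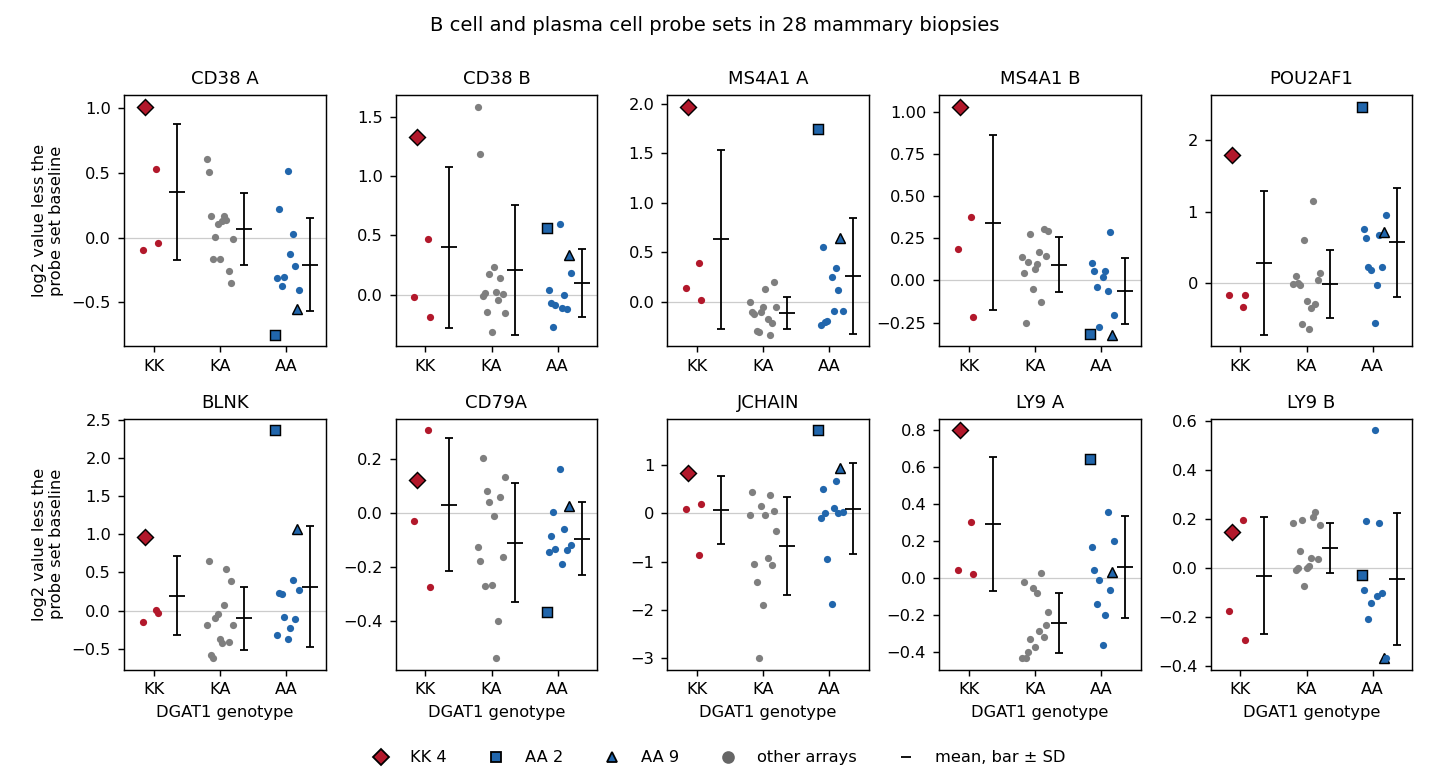
Log2 value less the baseline of the probe set (vertical axis, a scale of its own in each panel) for the 10 probe sets in KK, KA and AA cows, 1 point per cow, with the group mean and SD (n = 4, 13 and 11). KK 4, AA 2 and AA 9 have their own marks: KK 4 tops MS4A1 A, MS4A1 B, CD38 A and LY9 A, and AA 2 tops POU2AF1, BLNK and JCHAIN.

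Among surface molecules of B cells, MS4A1, which encodes CD20, was measured by a dim probe set, MS4A1 A (Bt.2158.1.S1_at), and an intermediate one, MS4A1 B (Bt.2158.2.S1_at). MS4A1 A had 0.39 in KK 1, 0.14 in KK 2, 0.02 in KK 3 and 1.97 in KK 4. In KA cows it ran from -0.34 through a median of -0.11 to 0.19, and in AA cows from -0.23 through a median of 0.12 to 1.75. KK 4 and AA 2 thus stood above every other cow, whose values ended at 0.65 in AA 9. In KK 4 only 36 of 24016 probe sets, MS4A1 A among them, were at or above that value.

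MS4A1 B had 0.37 in KK 1, 0.18 in KK 2, -0.22 in KK 3 and 1.03 in KK 4, against -0.25 to 0.30 (median 0.11) in KA cows and -0.32 to 0.29 (median -0.04) in AA cows. KK 4 was again the highest, while AA 2, high in MS4A1 A, was the second lowest at -0.32. The probe sets of this gene therefore did not follow each other: over 28 cows their correlation was r = 0.29 (rho = 0.0011), and over 27 cows without KK 4 it was r = -0.30.

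CD79A (Bt.4436.1.S1_a_at), the measured signalling chain of the receptor, varied least, by 0.85 log2 or 1.80-fold between the lowest and the highest cow. It had 0.31 in KK 1, -0.03 in KK 2, -0.27 in KK 3 and 0.12 in KK 4, against -0.54 to 0.21 (median -0.12) in KA cows and -0.37 to 0.16 (median -0.12) in AA cows. KK 4 ranked 5 of 28 here and did not stand out.

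BLNK (Bt.24520.1.A1_at), the adaptor that couples the receptor to its downstream enzymes, had 0.01 in KK 1, -0.15 in KK 2, -0.03 in KK 3 and 0.96 in KK 4. It ran from -0.63 through -0.19 to 0.65 in KA cows and from -0.38 through 0.22 to 2.36 in AA cows (lowest, median, highest). The 3 highest cows were AA 2, AA 9 and KK 4, in that order.

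LY9, a receptor of the SLAM family found on B and T lymphocytes, also had a pair of probe sets. LY9 A (Bt.28439.1.S1_a_at, intermediate) had 0.30 in KK 1, 0.05 in KK 2, 0.02 in KK 3 and 0.80 in KK 4, against -0.44 to 0.03 (median -0.29) in KA cows and -0.36 to 0.64 (median 0.03) in AA cows. All 4 KK cows lay above the KA mean of -0.24, and the overlap of KK with KA was narrow, since the highest KA cow had 0.03 and the lowest KK cow 0.02. LY9 B (Bt.28439.2.S1_at, dim) did not share this pattern, with 0.20, -0.17, -0.29 and 0.15 in KK 1 to KK 4, against -0.07 to 0.23 in KA cows and -0.37 to 0.56 in AA cows. The LY9 probe sets correlated at r = -0.17 (rho = -0.27, n = 28).

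Of the genes linked to antibody secretion, POU2AF1 (Bt.17854.1.A1_at) encodes a coactivator that B and plasma cells use at immunoglobulin promoters. It had -0.33 in KK 1, -0.17 in KK 2, -0.16 in KK 3 and 1.79 in KK 4. In KA cows it ran from -0.64 through a median of -0.01 to 1.15, and in AA cows from -0.56 through a median of 0.64 to 2.46. Without KK 4, the KK cows all lay below the AA mean of 0.57 and close together, with a mean of -0.22 ± 0.10 (SD, n = 3).

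CD38 encodes an enzyme at the cell surface that is abundant on human plasma cells and is also found on other immune cells. CD38 A (Bt.248.1.S1_at) had 0.53 in KK 1, -0.09 in KK 2, -0.04 in KK 3 and 1.01 in KK 4, against -0.35 to 0.60 (median 0.11) in KA cows and -0.75 to 0.51 (median -0.30) in AA cows. CD38 B (Bt.27365.1.A1_at) had 0.47, -0.02, -0.18 and 1.33 in KK 1 to KK 4, against -0.31 to 1.59 (median 0.02) in KA cows and -0.27 to 0.60 (median 0.00) in AA cows. Both are dim probe sets. KK 4 and KA 13 were the top cows in both, and the probe sets correlated at r = 0.60 (rho = 0.32, n = 28). AA 2 was the lowest cow in CD38 A, at -0.75, and ranked 5 of 28 in CD38 B.

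JCHAIN (Bt.3843.1.S1_at) varied more between cows than any other of these probe sets. It had -0.87 in KK 1, 0.10 in KK 2, 0.20 in KK 3 and 0.84 in KK 4. In KA cows it ran from -3.01 in KA 8 through a median of -0.36 to 0.44 in KA 2, and in AA cows from -1.88 in AA 1 through a median of 0.03 to 1.73 in AA 2. The highest and the lowest cow thus lay 4.74 log2 or 26.7-fold apart, a range wider than that of 99.5% of all probe sets, whose median range was 1.13 log2. After KA 8 the lowest cows were KA 12 at -1.90 and AA 1, so the low end held KA and AA cows, and the groups overlapped.

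KK cows were first compared with AA cows. None of the 10 probe sets passed in limma with Benjamini-Hochberg adjustment over all 24016 probe sets (0 called, 0% of all, smallest adjusted p of any probe set 0.909). At an unadjusted p under 0.05, 2 of the 10 were higher in KK, where 2% of all probe sets were, and 0 were lower, where 1.51% of all were. The 2 were CD38 A, with 0.35 ± 0.52 in KK (SD, n = 4) and -0.21 ± 0.36 in AA (SD, n = 11), and MS4A1 B, with 0.34 ± 0.52 in KK and -0.06 ± 0.20 in AA.

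The difference in CD38 A was 0.56 log2 or 1.47-fold (SE 0.19, limma adjusted p = 0.909), and all 4 KK cows lay above the AA mean. In MS4A1 B it was 0.40 log2 or 1.32-fold (SE 0.14, limma adjusted p = 0.909), with 3 of 4 KK cows above the AA mean. The other differences were 0.37 in MS4A1 A, 0.30 in CD38 B, 0.23 in LY9 A, 0.13 in CD79A, 0.01 in LY9 B, -0.03 in JCHAIN, -0.12 in BLNK and -0.29 in POU2AF1. Their 95% intervals all held 0, and that of JCHAIN was the widest, from -1.10 to 1.04. In all, 7 of 10 differences were above 0, where 52.2% of all probe sets were, with a median of 0.18 over the 10 and 0.01 over all.

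KK 4 carried much of this. Without it the differences between KK and AA were 0.34 in CD38 A (SE 0.20, limma adjusted p = 0.934) and 0.18 in MS4A1 B (SE 0.13, limma adjusted p = 0.934). Those in MS4A1 A and CD38 B became -0.07 and -0.01. POU2AF1 then differed by -0.79 log2 (SE 0.37, limma adjusted p = 0.934), with each of the 3 KK cows below the AA mean. With an unadjusted limit of 0.05, 0 of 10 were higher and 1 of 10 lower in KK, where 2.15% and 1.21% of all probe sets were. Of the 10 differences 4 lay above 0, where 52.2% of all did, and their median was -0.03.

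Without AA 2 and AA 9 and with KK 4 kept, 4 of 10 were higher in KK at an unadjusted p under 0.05, where 1.62% of all probe sets were, and 0 were lower, where 1.14% were. Again 0 passed the adjustment, and 8 of 10 differences lay above 0, where 51.8% of all did. The 4 were CD38 A at 0.46, MS4A1 A at 0.58, MS4A1 B at 0.35 and LY9 A at 0.29. JCHAIN and BLNK turned to the other side, with 0.24 and 0.19. Without all 3 arrays 0 of 10 were higher and 0 lower at that limit, where 1.87% and 1.17% of all probe sets were, and 6 of 10 differences lay above 0, where 52.5% of all did.

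**Figure D2:**
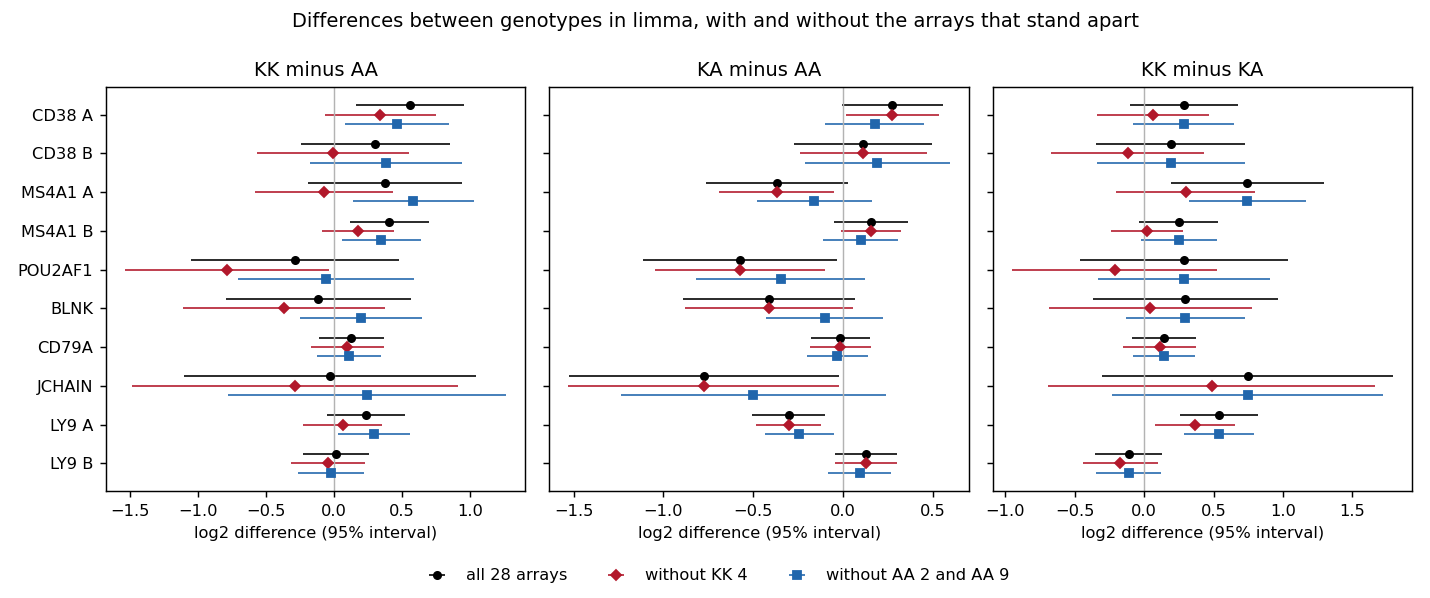
Difference in log2 value between genotypes with its 95% interval in limma (horizontal axis) for each probe set, in all 28 arrays, without KK 4, and without AA 2 and AA 9. For KK minus AA the estimates without KK 4 lie to the left of those with all arrays in every row, in MS4A1 A at -0.07 without it and 0.37 with it.

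KA cows were then compared with AA cows. None of the 10 probe sets passed (0 called, 0% of all, limma, smallest adjusted p 0.140 among the 10 and 0.0602 among all). At an unadjusted p under 0.05, 3 of the 10 were lower in KA, where 11.1% of all probe sets were, and 0 were higher, where 10.8% of all were. LY9 A averaged -0.24 ± 0.16 in KA (SD, n = 13) and 0.06 ± 0.28 in AA (SD, n = 11). That is a difference of -0.30 log2 (SE 0.10, limma adjusted p = 0.140), with all 13 KA cows below the AA mean. LY9 A differed by -0.11 within array numbers 29 to 42, which hold 2 KA cows, and by -0.35 within 43 to 56, which hold 3 AA cows. Without AA 2 and AA 9 these differences were -0.02 and -0.37.

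JCHAIN averaged -0.67 ± 1.02 in KA (SD, n = 13) and 0.10 ± 0.95 in AA (SD, n = 11), a difference of -0.78 log2 or 0.58-fold (SE 0.37, limma adjusted p = 0.221). Of the KA cows, 10 of 13 lay below the AA mean. Within array numbers 29 to 42 the difference was 0.07, and within 43 to 56 it was -0.84. Without AA 2 and AA 9 these were 0.30 and -0.38, with 2 AA cows left in the upper range. Over all array numbers the difference without AA 2 and AA 9 was -0.50 (SE 0.36, limma adjusted p = 0.693). Without any single array it lay between -0.97 and -0.58.

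POU2AF1 was lower in KA than in AA by 0.57 log2 at an unadjusted p under 0.05 (difference -0.57, SE 0.26, limma adjusted p = 0.211), with means of -0.01 ± 0.48 in KA and 0.57 ± 0.76 in AA. It differed by -0.82 within numbers 29 to 42 and by -0.58 within 43 to 56. Without AA 2 and AA 9 these were -0.54 and -0.53, and the difference over all array numbers was -0.35. The remaining differences were -0.41 in BLNK, -0.37 in MS4A1 A, -0.02 in CD79A, 0.11 in CD38 B, 0.13 in LY9 B, 0.16 in MS4A1 B and 0.27 in CD38 A. Of the 10 differences 4 lay above 0, where 54.5% of all did, with a median of -0.16, against 0.02 over all probe sets. Without AA 2 and AA 9, LY9 A alone remained lower at the unadjusted limit, 1 of 10 where 4.3% of all probe sets were, and 0 were higher, where 5.2% were. KK 4 enters this comparison through the shared spread alone. Without it CD38 A was higher, 1 of 10 where 10.4% of all were, and MS4A1 A joined the lower ones, 4 of 10 where 10.8% of all were.

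Of 31 probe sets of T and natural killer cell markers, 0 passed the adjustment in limma. At an unadjusted p under 0.05, 8 were lower and 2 higher in KA than in AA, where 11.1% and 10.8% of all probe sets were. Without AA 2 and AA 9, 3 were lower and 0 higher, where 4.3% and 5.2% of all were. LY9 is also found on T cells, and the part of these cells in its difference was not tested.

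When the range of the array number entered as a block, 2 of 10 were lower in KA than in AA, LY9 A and POU2AF1, and 2 of 10 higher, CD38 A at 0.44 and LY9 B at 0.21, all at an unadjusted p under 0.05. The shares of all probe sets under this block were 11.1% lower and 10.1% higher.

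Between KK and KA, limma again called 0 of 10 (0% of all, smallest adjusted p 1). With the unadjusted limit of 0.05, 2 of the 10 were higher in KK, where 1.44% of all probe sets were, and 0 were lower, where 1.39% were. LY9 A averaged 0.29 ± 0.36 in KK (SD, n = 4) and -0.24 ± 0.16 in KA (SD, n = 13). The difference of 0.54 log2 or 1.45-fold (SE 0.14, limma adjusted p = 1) ranked 9 by p among all 24016 probe sets. MS4A1 A averaged 0.63 ± 0.91 in KK and -0.11 ± 0.16 in KA, a difference of 0.74 log2 (SE 0.27, limma adjusted p = 1). With the range of the array number as a block, LY9 A differed by 0.46 (95% interval 0.10 to 0.82) and MS4A1 A by 0.60 (95% interval -0.10 to 1.30). LY9 A alone was then higher at the unadjusted limit, 1 of 10 where 1.6% of all probe sets were, and 0 were lower, where 1.63% were.

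Without KK 4, LY9 A still differed by 0.37 log2 (SE 0.14, 95% interval 0.08 to 0.65), the 1 of 10 higher at the unadjusted limit, where 1.36% of all probe sets were, and 0 were lower, where 1.3% were. MS4A1 A differed by 0.30 (95% interval -0.20 to 0.80). Without all 3 arrays the differences of LY9 A and MS4A1 A were the same, 0.37 and 0.30, and the spread was narrower, so that both were higher at that limit, 2 of 10 where 2.96% of all were, and 0 were lower, where 2.65% were. Within array numbers 29 to 42, which hold 4 KK and 2 KA cows, LY9 A differed by 0.35, MS4A1 A by 0.62 and JCHAIN by -0.14, against 0.74 in JCHAIN over all arrays. KK lay above KA in 9 of 10 probe sets, where 49.5% of all probe sets did, and in 7 of 10 without KK 4, where 50.2% did. In none of the 3 comparisons did the groups of any of the 10 probe sets stand apart without overlap, which 0.0916% of all probe sets did for KK and AA, 0% for KA and AA and 0.162% for KK and KA.

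The slope per K allele, with 0, 1 and 2 alleles in AA, KA and KK, again gave 0 of 10 past the threshold (0% of all in limma, smallest adjusted p 0.526). With the unadjusted limit it was above 0 in 2 of 10, where 4.68% of all probe sets were, and below 0 in 0 of 10, where 4.48% were. The 2 were CD38 A, at 0.28 log2 per allele (SE 0.09), and MS4A1 B, at 0.19 (SE 0.07). Without KK 4 the slope of CD38 A was 0.20 (SE 0.09), and that of POU2AF1 was -0.45 (SE 0.16), so 1 of 10 lay above 0 and 1 below at that limit, where 5.63% and 5.04% of all did.

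Across cows, the probe sets were divided into sets that correlated more within than between. KK 4 was the highest cow in some probe sets of both. This division was made after the values were seen, and it has no test. MS4A1 A, POU2AF1, BLNK, JCHAIN and LY9 A correlated with each other at r from 0.54 to 0.80 (median 0.71, 10 pairs, n = 28), with rho from 0.16 to 0.76. The pair with the highest r was POU2AF1 and BLNK. The probe sets CD38 A, CD38 B, MS4A1 B, CD79A and LY9 B correlated among themselves at r from 0.15 to 0.60 (median 0.33, rho 0.03 to 0.60). Between these sets r ran from -0.38 to 0.47 with a median of -0.08, and without KK 4 from -0.57 to 0.25 with a median of -0.28 (n = 27). Over 28 cows, probe sets of the same gene, for MS4A1 and for LY9, thus lay in different sets.

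Among the first set r was 0.54 to 0.79 without KK 4 (median 0.68, n = 27). Without KK 4, AA 2 and AA 9, r among its probe sets was -0.08 to 0.61 with a median of 0.52 (n = 25), and the pair of MS4A1 A and POU2AF1 had the lowest, at -0.08. MS4A1 A then had r from -0.08 to 0.38 with the rest of its set and from 0.13 to 0.36 with the second set. Its place in the first set therefore rests on those arrays. Within the second set r was then 0.12 to 0.71 (median 0.26), and between the sets -0.43 to 0.36 (median -0.11). POU2AF1, BLNK, JCHAIN and LY9 A still correlated with each other, for instance POU2AF1 with JCHAIN at r = 0.61 and JCHAIN with LY9 A at r = 0.58. All these points share 1 array per cow, so anything that shifts a whole array enters every pair.

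**Figure D3:**
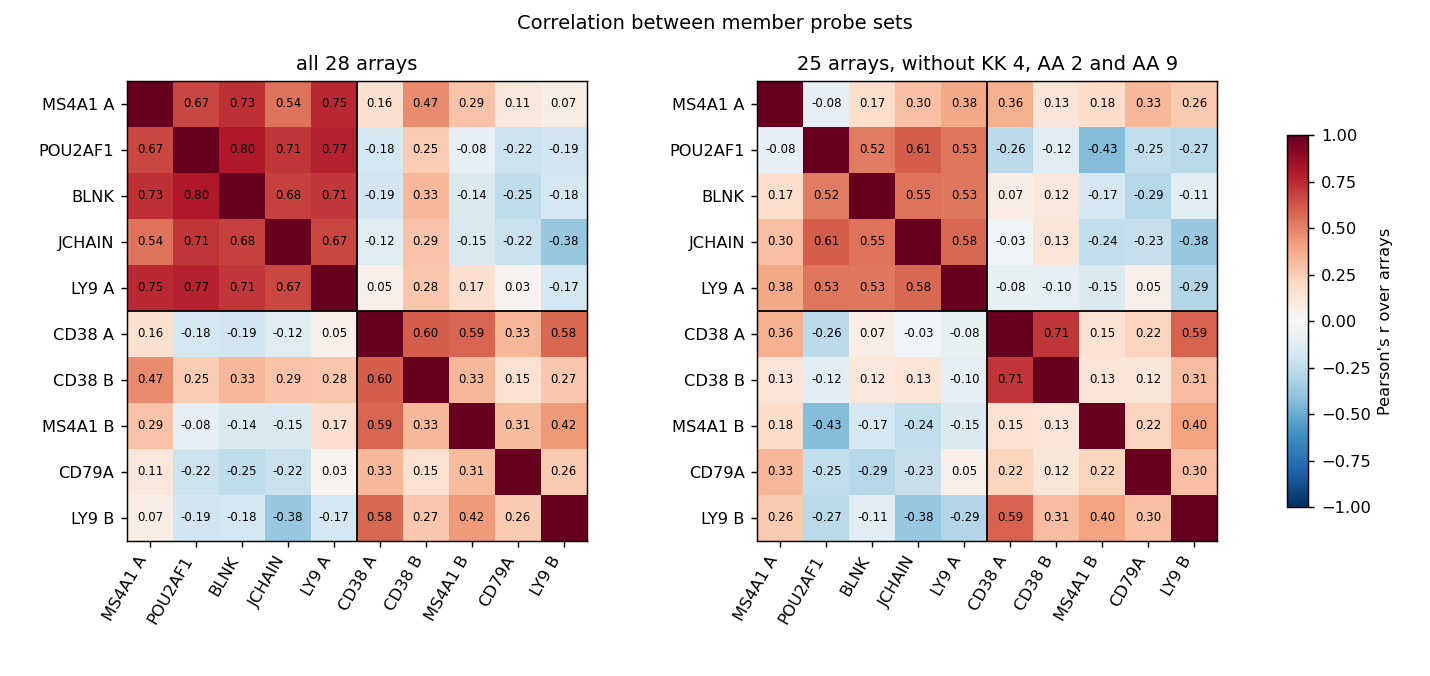
Pearson's r between the 10 probe sets over 28 cows (left) and over the 25 cows without KK 4, AA 2 and AA 9 (right), with the value in each cell and a colour scale from -1 to 1. The upper left block is MS4A1 A, POU2AF1, BLNK, JCHAIN and LY9 A, with r from 0.54 to 0.80 on the left and from -0.08 to 0.61 on the right.

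JCHAIN followed the antibody heavy chain genes shown here. IGHM, which encodes the heavy chain of IgM and is a bright probe set, had -1.0, 0.00, 1.02 and 0.77 in KK 1 to KK 4. It ran from -2.06 in KA 8 to 0.87 in KA 13 in KA cows and from -1.37 in AA 1 to 1.83 in AA 2 in AA cows. KA 8, AA 1 and AA 2 ended their groups in JCHAIN too, while KK 3, not KK 4, was the highest KK cow here, and KA 2, not KA 13, was the highest KA cow in JCHAIN. JCHAIN and IGHM correlated at r = 0.90 and rho = 0.83 over 28 cows (permutation p = 2e-05 for each, the smallest that the 100000 resamples can give, 2.5e-05 after adjustment over 5 relations). The genes of these 5 relations were chosen with earlier results of these data known. The adjustment does not cover that choice, so the p-values of these relations are a description. Without KA 8 and KA 12, the cows farthest from the JCHAIN median, r was 0.85. Within array numbers 29 to 42 it was 0.88 and within 43 to 56 it was 0.94 (n = 14 each), and without KK 4, AA 2 and AA 9 it was 0.89.

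The heavy chain of IgG, annotated as IGCGAMMA and measured by a bright and an intermediate probe set whose mean is used, had -0.54, -0.14, 0.51 and 2.61 in KK 1 to KK 4. It reached 1.92 in KA cows and 2.54 in AA cows, in AA 2. It correlated with JCHAIN at r = 0.90 (rho = 0.89), at 0.90 within the lower and 0.91 within the upper array numbers, and at 0.87 without the 3 arrays. Near-identical copies of immunoglobulin genes may share these probe sets, so which IgG subclass was read is uncertain.

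MZB1, a chaperone of antibody assembly in B and plasma cells, had -0.01, -0.04, -0.38 and 2.73 in KK 1 to KK 4 and at most 1.65 in the other cows, so KK 4 was far above all. SLAMF7, a surface receptor that is abundant on human plasma cells, had -0.38, 0.01, 0.32 and 1.98 in KK 1 to KK 4, against -0.85 to 0.79 in KA and -0.86 to 1.84 in AA. They correlated with JCHAIN at r = 0.70 (rho = 0.79) for MZB1 and r = 0.79 (rho = 0.85) for SLAMF7, each with permutation p = 2e-05 (2.5e-05 adjusted). Within the lower and upper array numbers r was 0.61 and 0.83 for MZB1 and 0.82 and 0.78 for SLAMF7. PIGR, the epithelial receptor that carries what JCHAIN has joined, showed no such relation, with r = -0.12 (rho = -0.08, permutation p = 0.553 and 0.686, the same after adjustment). Its r was 0.20 without the 3 arrays, and AA 9 had the lowest PIGR value, -3.24. The list of plasma cell genes that is counted further below did not follow JCHAIN as one. Of its 22 probe sets 11 correlated with JCHAIN above 0 and 11 below 0. Their r ran from -0.56 to 0.90 with a median of 0.01 (n = 28). Without KK 4, AA 2 and AA 9 the counts were 14 and 8, with a median of 0.07.

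**Figure D4:**
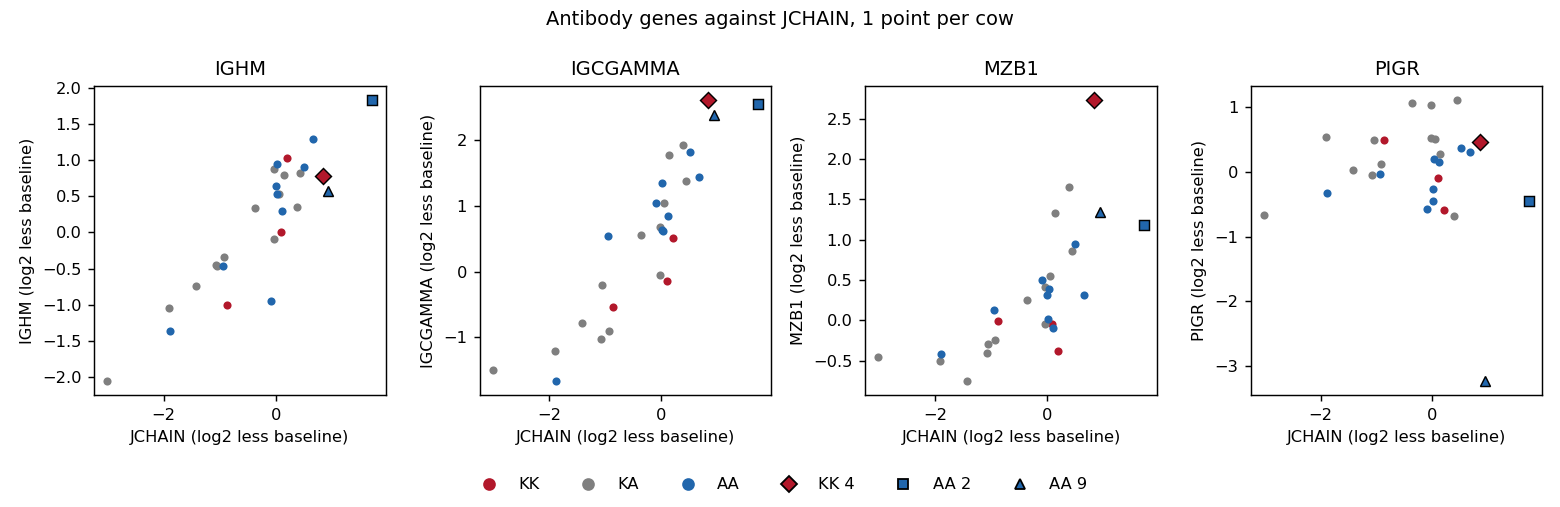
Log2 value less the baseline for IGHM, IGCGAMMA, MZB1 and PIGR (vertical axes) against JCHAIN (horizontal axis), 1 point per cow, coloured by genotype, with KK 4, AA 2 and AA 9 marked. IGHM and IGCGAMMA rise along JCHAIN (r = 0.90 for each), KK 4 stands above the other cows in MZB1 at 2.73, and PIGR does not follow JCHAIN (r = -0.12).

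Of 9148 other genes, those whose values most resembled the mean over the 7 genes across 28 cows were CD48 (r = 0.87), SLAMF7 (0.87), MZB1 (0.86), PLXNC1 (0.85), IGCGAMMA (0.85), PCLAF (0.84), FCGR1A (0.84), CYRIB (0.84), MPEG1 (0.83) and LOC510988 (0.82). JCHAIN weighs most in this mean, since it varied most between cows (SD 1.00, with POU2AF1 next at 0.71). CD48 is a receptor of many leukocytes, and FCGR1A and MPEG1 are known from macrophages. Without KK 4 the list changed: PLXNC1, CTNNB1 and SLC39A11 led at r = 0.87, followed by LOC613822, FAM3C, TCF7, COG3, SMAD2, PRDX3 and PTMA at 0.85 to 0.86 (n = 27). Of the first list PLXNC1 is the single gene in both. CTNNB1 had at most 0.20 in KK and KA cows and 1.35 in AA 2.

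Other genes of the B cell line were counted from lists. Of 32 further B cell genes 13 were measured, by 19 probe sets, and of 23 plasma cell genes 15, by 22 probe sets. Of 16 genes of recruitment and antibody transport all 16 were measured, by 23 probe sets. In each list limma called 0 probe sets in each comparison of genotypes. Between KK and AA, 1 probe set of each list was higher in KK at an unadjusted p under 0.05 and 0 were lower, where 2% and 1.51% of all were. Without KK 4 this was 1 B cell probe set and 0 of the other lists, where 2.15% of all were higher and 1.21% lower.

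For KA against AA, at the same limit, 3 of 19 B cell probe sets were higher and 2 lower. Of the plasma cell probe sets 3 of 22 were higher and 0 lower, and of the recruitment probe sets 3 of 23 were higher and 6 lower. The shares of all probe sets were 10.8% higher and 11.1% lower. Without AA 2 and AA 9 there were 1 higher and 0 lower B cell probe sets, 2 higher and 0 lower plasma cell probe sets, and 1 higher and 1 lower recruitment probe sets, where 5.2% and 4.3% of all were. Without KK 4, 4 plasma cell probe sets were higher and 1 lower, where 10.4% and 10.8% of all were. The counts of the other lists were as with all arrays. Between KK and KA the only one at that limit was 1 plasma cell probe set, higher in KK, where 1.44% of all were higher and 1.39% lower. Without KK 4 there was none (0 of the 3 lists in limma, also at an unadjusted p under 0.05), where 1.36% and 1.3% of all were. Without AA 2 and AA 9, 1 plasma cell probe set was higher and 2 of 19 B cell probe sets were lower in KK. There 3.09% of all were higher and 2.99% lower. Of the 22 plasma cell probe sets 20 lay above 0 for KK minus AA, where 52.2% of all did, with a median difference of 0.20 against 0.01 over all probe sets. Without KK 4 this was 16 of 22, with a median of 0.12, and without AA 2 and AA 9 it was 19 of 22, also with a median of 0.12. The plasma cell list means of AA 2 and AA 9 were the lowest of all cows. Of 18 probe sets of milk epithelium markers 15 also lay above 0 for KK minus AA, with a median of 0.27. Without AA 2 and AA 9 this was 14 of 18, with a median of 0.05. The part of the epithelium in the differences of the plasma cell list was not tested.

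Among the B cell genes, the complement receptor CR2, which lowers the threshold of B cell activation, had the 1 probe set higher in KK than in AA at the unadjusted limit, at 0.23 (limma adjusted p = 0.909), and its other probe set differed by -0.03. BTK, a kinase downstream of the B cell receptor, differed by 0.02, and CXCR5, the receptor that leads B cells into follicles, by 0.06 between KK and AA. PRDM1, the master regulator of plasma cell fate, differed by 0.10 to 0.24 in its 3 probe sets. MZB1 differed by 0.15, or -0.56 without KK 4, and SLAMF7 by 0.06, or -0.44 without KK 4, so KK 4 set the side on which these plasma cell genes lay. IGHM differed by -0.19 between KK and AA, and by -0.50 between KA and AA (limma adjusted p = 0.372), which without AA 2 and AA 9 were -0.0049 and -0.32.

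Of the genes that draw these cells in, CXCL13, the chemokine that CXCR5 binds, had -0.81, 1.45, 0.49 and 1.62 in KK 1 to KK 4. It ran from -1.04 to 2.07 in KA cows and from -0.62 to 3.75 in AA cows, with AA 2 and AA 9 at the top of all cows. CXCL13 differed by -0.08 between KK and AA and by -0.92 between KA and AA (limma adjusted p = 0.217), and without AA 2 and AA 9 by 0.46 and -0.38. CCL28, the chemokine that brings IgA plasma cells to the gland in mice, differed by 0.21 between KK and AA and by 0.17 between KA and AA. TNFSF13B, the B cell survival factor BAFF, differed by 0.01 between KK and AA and by -0.35 between KA and AA, and without AA 2 and AA 9 by 0.21 and -0.15. PIGR differed by 0.46 between KK and AA and by 0.72 between KA and AA (limma adjusted p = 0.909 and 0.186). Without AA 2 and AA 9 these were 0.14 and 0.40. DGAT1 itself differed by 0.57 between KK and AA and by 0.37 between KA and AA (limma adjusted p = 0.909 and 0.139). It correlated with the mean over the 7 genes at r = -0.27 over 28 cows (rho = -0.10). Without KK 4 this was r = -0.46, and without KK 4, AA 2 and AA 9 it was -0.17, as a description of these arrays.

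KK 4 was high in other immune cell markers too. Its mean over 19 probe sets of myeloid markers was 1.10, with all 19 above 0, against -0.10 to 0.03 in the other KK cows, -0.28 to 1.23 in KA cows and -0.36 to 1.05 in AA cows. Its mean over 31 probe sets of T and natural killer cell markers was 0.34, with 24 of 31 above 0, against -0.20 to 0.05 in KA cows and -0.08 to 0.47 in AA cows. In both lists KK 4 ranked 2 of 28. In the plasma cell list (0.49, 20 of 22 above 0), the further B cell list (0.25, 15 of 19 above 0) and the recruitment list (0.40, 18 of 23 above 0) it ranked 1. Its milk epithelium markers averaged -0.08 (rank 23) and its fibroblast markers -0.12 (rank 21), both inside the range of the other cows.

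AA 2 and AA 9 differed from KK 4 in the milk epithelium, fibroblast and plasma cell lists. In the myeloid list AA 2 and AA 9 were high too, at 0.78 and 1.05, though cows outside these 3 arrays reached 1.23. In the T and natural killer cell list they had 0.17 and 0.47, against at most 0.11 in the 25 cows without these 3 arrays. The milk epithelium markers of AA 2 and AA 9 averaged -1.34 and -1.88, against -0.27 to 0.11 in those 25 cows. The fibroblast markers of AA 2 and AA 9 averaged 0.88 and 1.20, against -0.34 to 0.34. The plasma cell list means of AA 2 and AA 9 were low, at -0.26 and -0.33. JCHAIN and IGCGAMMA, which are not in that list, were high in both arrays. Of the list itself, MZB1 (1.19 in AA 2 and 1.34 in AA 9), SLAMF7 (1.84 and 0.62) and IGHM (1.83 and 0.58) lay above 0. The low means came from other members of the list. The difference between 3′ and 5′ control probe sets of actin and GAPDH was 0.06 in KK 4, and 0.60 in AA 2 and -0.44 in AA 9, the extremes of the 28 cows. Levels are lost, so no marker can be said to be at 0. The part of other immune cells, of tissue makeup and of RNA quality in the results on B cell and plasma cell genes was not tested.

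**Figure D5:**
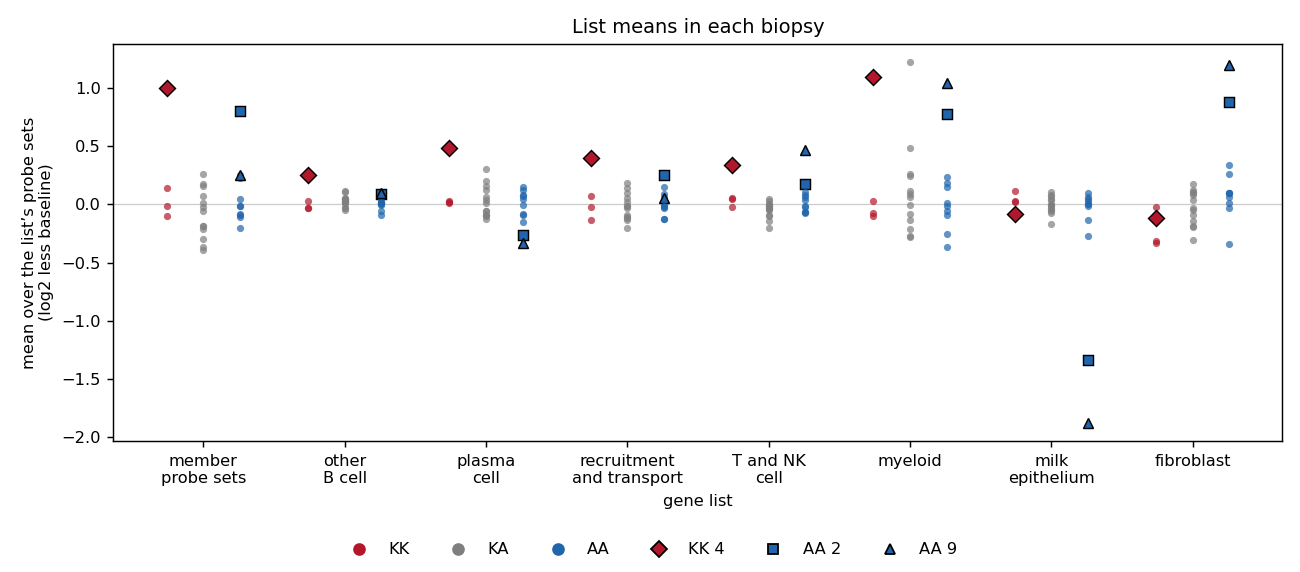
Mean over the probe sets of each gene list in each cow (vertical axis, log2 less the baseline), with KK, KA and AA cows from left to right in each list and KK 4, AA 2 and AA 9 marked. KK 4 is the highest cow in the 10 probe sets described here and in the further B cell, plasma cell and recruitment lists, and AA 2 and AA 9 lie far below the other cows in milk epithelium markers, at -1.34 and -1.88.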

How the data were processed

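The authors deposited log2 values for 24128 probe sets and 28 arrays. Per the labels' protocols they used Bioconductor 2.7 in R 2.13, and the submitters' processing notes name RMA and GCRMA. The sources used here do not say which of them gave the values, or what baseline was taken away. Without 112 control probe sets, 24016 were tested. Of these, 13292 had 1 symbol in the platform annotation, 86 several and 10638 none. Symbols were brought up to date for 13263 of the 13292 by gene ID, from RefSeq's gene table (ARS-UCD2.0).

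Genotypes were compared in R 4.3.3 by limma 3.58.1 (lmFit, eBayes, 1 mean per genotype over all arrays, no covariate). The slope over the count of K alleles had a model of its own. P-values were adjusted by Benjamini-Hochberg over all probe sets, with a threshold of 0.05. Precision is limited by the number of arrays, 4 in KK. On simulated arrays with 200 changed probe sets among 24016, KK minus AA recovered 36.5% of those changed by 0.5 log2 and 84.5% of those changed by 1 log2. For KA minus AA these shares were 69.5% and 93.5%, for KK minus KA 41% and 86.5%, and for the slope 88.5% and 99%. The shares are over the changed probe sets together and do not hold for each gene described here. For KK minus AA the SE ran from 0.12 in CD79A to 0.52 in JCHAIN. The interval of JCHAIN, -1.10 to 1.04, reached beyond 1 log2 on both sides. A change of 1 log2 in JCHAIN could therefore be missed even without adjustment.

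The level class was read from rounding steps: the values of a bright probe set lay on the step of log2 levels of 8 or more in at least 95% (tolerance 0.06 of a step, values within 0.5 of 0). This assumes that the values were held at single precision before the subtraction. Relations with JCHAIN used two-sided permutation tests. Alternatives were quantile normalization, centring of arrays, array weights, a robust prior, only the groups compared, array numbers as a block, the control probe 3′ minus 5′ difference, dim probe sets left out, gene means, a threshold of 0.10, and arrays left out.

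The rule for named genes took every probe set of the 8 genes, 24 named genes of the other lists (11 had a probe set), the 10 genes most like the mean with and without KK 4, and DGAT1. The genes, lists and arrays singled out were chosen with earlier results of these data known.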

Additional observations from a re-analysis of the deposited data

Results flagged for a closer look

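In the KK group, KK 4 lay far from the other cows, by Dixon's measure of the gap to the nearest cow over the whole range of the group, in 2 probe sets and in the mean over the 7 genes. POU2AF1 was 1.79 in KK 4 and -0.33 to -0.16 in the other KK cows, a gap of 0.92 of the range. BLNK was 0.96 in KK 4 and -0.15 to 0.01 in the other KK cows, a gap of 0.855 of the range. The mean over the 7 genes was 0.98 in KK 4 and -0.09 to 0.04 in the other KK cows, a gap of 0.885 of the range. MS4A1 A came close, with a gap of 0.81. Chance gives such a gap in about 1 in 20 groups, but KK 4 was singled out because it is high in these genes, so that rate does not apply here and the gaps are a description with no test. The KA and AA groups hold more than 10 arrays and were not examined in this way.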

How the results depend on the processing

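The count of these probe sets past the threshold was 0 in each of 160 recomputations, over 4 comparisons and 40 settings, and the median over the 10 moved by less than 1 SD between cows (0.24) in each. That SD is larger than the median for KK minus AA, 0.18, so a move within it can change the sign. Without KK 4 this median became -0.03, and that for KK minus KA went from 0.29 to 0.05. For KA minus AA the count over all probe sets was 47 with quantile normalization, 104 with array weights, 5 without dim probe sets, 12 at a threshold of 0.10, and 0 to 525 with 1 array left out, the 525 without AA 1. For KK minus KA it was 3 with array weights. None of the probe sets called was among the 10.

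Of 1152 recomputed differences 31 changed sign. For KK minus AA these were JCHAIN at 0.093 (quantile normalization), 0.20 (array weights) and 0.24 (without AA 2 and AA 9), BLNK at 0.044, 0.19 and 0.19 under the same settings, POU2AF1 at 0.0005 (array weights), and LY9 B at -0.027 (array number block), -0.021 (without AA 2 and AA 9) and -0.080 (also without KK 4). For KK minus KA, without the 3 arrays, they were CD38 B at -0.12 and POU2AF1 at -0.21. With 1 array left out, KK minus AA lay at -0.29 to 0.28 in JCHAIN, -0.062 to 0.10 in LY9 B, -0.0077 to 0.50 in CD38 B, -0.073 to 0.58 in MS4A1 A and -0.37 to 0.089 in BLNK. KA minus AA lay at -0.043 to 0.020 in CD79A and -0.0021 to 0.16 in CD38 B, and KK minus KA at -0.12 to 0.39 in CD38 B and -0.21 to 0.49 in POU2AF1. None of these differences had passed, and the cause was not tested.

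No paired analysis was possible because the labels give no replicate numbers shared between genotypes, and each cow has 1 array. Signal over background is unknown for these values, and 6 of the 10 probe sets are dim. With 4 KK cows, a difference of 0.5 log2 would often be missed.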

Other observations

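Other B cell genes did not follow JCHAIN as one across cows. Of 19 probe sets 8 correlated with it above 0 and 11 below 0, at r from -0.59 to 0.70 with a median of -0.16 (n = 28), and without KK 4, AA 2 and AA 9 the counts were 8 and 11 again, with a median of -0.17. The highest was a probe set of IRF8 (r = 0.70, 0.61 without the 3 arrays), while its other probe set had r = -0.55, and BTK had r = 0.40 (0.12 without the 3 arrays). CXCR5 correlated with JCHAIN at r = -0.57 (rho = -0.38, n = 28) and at r = -0.43 without KK 4, AA 2 and AA 9. Of the CR2 probe sets, the intermediate one correlated at r = -0.54 (rho = -0.60) and at r = -0.43 without the 3 arrays, and the dim one at r = -0.16. CXCR5 was -0.16 in KK 4, -0.59 in AA 2 and -0.78 in AA 9, the last 2 below every other cow. SPIB had the lowest, r = -0.59. These genes were chosen after their values were seen, and the values describe the arrays with no test.

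Over the 25 cows without KK 4, AA 2 and AA 9, the genes most like the mean over the 7 genes were IGCGAMMA (r = 0.86), MZB1 (0.81), IGHM (0.79), PLXNC1 (0.78), FAM3C (0.75), SLC39A11 (0.75), CTNNB1 (0.75), TCF7 (0.74), CYP27A1 (0.74) and SLAMF7 (0.74). This ranking was added after the values were seen. It is led by 3 antibody or antibody assembly genes, of which IGHM is in neither of the lists over 28 and 27 cows. Likeness to this mean is not likeness to each of the 7 genes. Over the same 25 cows IGHM correlated with JCHAIN at r = 0.89 and with POU2AF1 at 0.55. With MS4A1 A its r was 0.26, with CD38 A -0.04 and with CD79A -0.25.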
